A study of Mus musculus with 56 samples.

Results

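Thymic epithelial cells were examined for the collagens, the laminins and a small group of matrix proteoglycans and glycoproteins that surround them. The genes were chosen by name from the protein-coding genes of the GENCODE M21 mouse annotation: every collagen chain, every laminin chain, and decorin (Dcn), lumican (Lum), biglycan (Bgn), fibromodulin (Fmod), osteoglycin (Ogn), dermatopontin (Dpt), the nidogens (Nid1 and Nid2) and fibronectin (Fn1). This gave 64 of the 50600 genes in the files, and the rule itself uses no expression value. They fall into 21 basement membrane genes, 11 fibrillar collagens, 7 interstitial proteoglycans and glycoproteins, and 25 other collagens.

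The study asked how the thymic epithelium changes while the thymus shrinks in pregnancy and regrows after birth. Sorted cortical (cTEC) and medullary (mTEC) thymic epithelial cells were profiled by polyA RNA-seq in 56 libraries, 28 of each cell type, each replicate coming from a single mouse. B6.SJL females had been mated with BALB/cJ males, and their pups were taken away at birth so that the mothers did not lactate. EpCAM+ CD45- cells were divided by the lectin UEA1, cTECs being UEA1- and mTECs UEA1+, after the tissue had been loosened with papain, DNase and collagenase IV.

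The groups were non-pregnant controls (NPC), pregnant females near term (D-2), the day of parturition (D0) and the days after it. The controls and D-2, together with D0, D3, D6 and D12, had 3 libraries for each cell type, and the other 10 time points, which fill the days up to D28, had 1 each. Early here means D0 through D12 (18 libraries of each cell type), and late means D16, D20, D24 and D28 (4 libraries of each cell type), so that within a cell type every late library is a different day. Whether the cTECs and mTECs of a day came from the same mouse is not given in the sources used here. The ages of the mice are not given in the sources used here.

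Epithelial cells sit on a basement membrane, a thin sheet in which a laminin network and a type IV collagen network are joined by nidogens and by proteoglycans such as perlecan. Stromal matrix lies outside that sheet: fibrillar collagens form fibres, small leucine-rich proteoglycans such as decorin bind the fibres and set their spacing, and fibronectin and the type VI collagen filaments link them to cells. In most organs the epithelium makes laminins and some type IV collagen while fibroblasts make most of the fibrillar collagen, and in the thymus the epithelium also forms a three-dimensional network through which thymocytes move.

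Total counts ran from 4561208 to 108547384 per library, with a median of 17972566. All 8 cTEC markers were called higher in cTECs and none of the 8 mTEC markers was, as the labels have it. Of 10 fibroblast markers tested, 6 were called, all higher in mTECs, as were 3 of 5 mural cell markers and 2 of 3 mesothelial markers. The summed level of the 12 fibroblast markers was 8.44 to 33 FPKM (fragments per kilobase of transcript and per unit of sequencing depth) in cTECs. In mTECs it was 22 to 68.1, and in both it came mostly from Fbn1 and Cd34. Of the 12, 4 in cTECs and 7 in mTECs had a mean of at least 1 FPKM. A median of 0 was found for 4 in cTECs and 3 in mTECs. Of the other cells that a sort could carry, endothelial markers summed to 0 to 11 FPKM in cTECs and 0 to 19.7 in mTECs, mural cell markers to 26 to 75.2 and 111 to 273, and mesothelial markers to 2.8 to 68.8 and 25 to 73.9. Thymocyte markers summed to 18.3 to 315 in cTECs and 8.7 to 97.7 in mTECs, with 9 of 10 called, all higher in cTECs. Macrophage and dendritic cell markers summed to 1.82 to 10 and 5.95 to 37.2, with 5 of 7 called, 1 of them higher in cTECs. The libraries least like the others of their cell type were cTEC D3 replicate 2, cTEC D20, mTEC D3 replicate 1 and mTEC D0 replicate 2, with median correlations of 0.756, 0.815, 0.792 and 0.803 to the others.

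Type IV collagen genes lie in the genome as head-to-head pairs, each pair read outwards from a common start region. The start regions of the pairs described below are shown. The windows run from 250 bases before to 50 bases after each gene start in RefSeq on GRCm38.p6, given in the direction of the gene, with the letters GGGCGG (the core of a GC box), CCAAT and TATAAA in capitals on whichever strand they occur. Col4a1 (chr8:11312777-11313076, minus strand) and Col4a2 (chr8:11312555-11312854, plus strand) start 21 bases apart, with the starts of the genes overlapping, and their windows share 78 bases. Col4a5 (chrX:141475169-141475468, plus strand) and Col4a6 (chrX:141474027-141474326, minus strand) start 1343 bases apart, and their windows do not touch.
Col4a1: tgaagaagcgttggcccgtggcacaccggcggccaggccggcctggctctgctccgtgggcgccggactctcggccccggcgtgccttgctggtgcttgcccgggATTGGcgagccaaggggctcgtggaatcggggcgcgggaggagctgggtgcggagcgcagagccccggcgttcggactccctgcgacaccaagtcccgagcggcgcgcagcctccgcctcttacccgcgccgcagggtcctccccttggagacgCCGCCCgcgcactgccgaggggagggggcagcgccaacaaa
Col4a2: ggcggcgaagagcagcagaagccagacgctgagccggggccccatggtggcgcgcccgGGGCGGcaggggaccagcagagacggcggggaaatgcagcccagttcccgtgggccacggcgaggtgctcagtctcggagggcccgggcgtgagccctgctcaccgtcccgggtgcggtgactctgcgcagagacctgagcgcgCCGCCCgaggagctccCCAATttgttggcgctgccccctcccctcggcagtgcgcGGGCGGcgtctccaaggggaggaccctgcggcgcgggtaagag
Col4a5: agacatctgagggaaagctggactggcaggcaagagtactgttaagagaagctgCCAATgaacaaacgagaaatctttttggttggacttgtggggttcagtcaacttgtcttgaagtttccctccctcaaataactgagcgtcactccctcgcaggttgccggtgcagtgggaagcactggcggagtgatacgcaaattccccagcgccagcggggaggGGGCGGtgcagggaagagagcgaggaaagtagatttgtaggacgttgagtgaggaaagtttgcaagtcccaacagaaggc
Col4a6: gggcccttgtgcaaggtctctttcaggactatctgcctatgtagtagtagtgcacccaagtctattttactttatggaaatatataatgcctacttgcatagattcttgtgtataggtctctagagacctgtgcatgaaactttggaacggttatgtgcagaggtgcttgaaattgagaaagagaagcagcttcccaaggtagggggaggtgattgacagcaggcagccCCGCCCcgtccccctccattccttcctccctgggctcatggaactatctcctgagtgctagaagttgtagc

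Within these windows Col4a1 held 1 CCAAT and 1 GGGCGG, Col4a2 held 1 and 3, Col4a5 held 1 and 1, and Col4a6 held no CCAAT and 1 GGGCGG. The GGGCGG at position 10 of Col4a1 and that at position 8 of Col4a2 lie in the shared bases and are the same site. None of the 4 windows held TATAAA. Of all 32851 RefSeq windows of this length, 35.7% held GGGCGG, 37.4% held CCAAT and 13.6% held TATAAA, against 57.1%, 32.7% and 14.3% of the 49 windows of the 45 matrix genes that had an entry. These matches are descriptions of letters only.

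Both cell types carried transcripts of type IV collagens, laminins, Col18a1 and nidogens. Levels are given as FPKM, which takes account of transcript length, as the mean over the 28 libraries of a cell type ± SD. Col4a1 stood at 144 ± 35.3 in cTECs and 200 ± 38.6 in mTECs, and Col4a2 at 68.4 ± 12.5 and 77.7 ± 12. Type IV collagen of most basement membranes is a trimer with 2 alpha-1 chains and 1 alpha-2 chain, and the ratio of Col4a1 to Col4a2 FPKM had a median of 2.02 in cTECs (1.36 to 3.41) and 2.6 in mTECs (1.7 to 3.78). The remaining type IV chains were lower: Col4a5 had means of 7.74 in cTECs and 2.56 in mTECs, while Col4a3 and Col4a4, the chains known from kidney glomeruli and lung, did not reach the filter on low values (a mean of 0.5 FPKM over the 28 libraries) in either cell type.

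Lamb3 and Lama3, laminin chains of skin and other stratified epithelia, were among the most abundant matrix transcripts. Lamb3 stood at 133 ± 21.8 in cTECs and 81.6 ± 16.6 in mTECs, and Lama3 at 78.3 ± 16.8 and 67.2 ± 12.6. The widely expressed chains Lamb1 (81 ± 27 and 66.8 ± 18.6) and Lamc1 (33.7 ± 14.7 and 19.5 ± 5.83) were also present in every library, and the other alpha chains Lama5 (18.3 ± 11.4 and 13.8 ± 7.04) and Lama4 (13 ± 4.14 and 15.8 ± 6.24) were lower. Lama1, found in early embryonic basement membranes, and Lamc3 were near 0, with means of 0.394 and 0.0357 in cTECs and 0.755 and 0.486 in mTECs. Col18a1, the basement membrane collagen that yields endostatin, was high at 122 ± 25.3 in cTECs and 63.9 ± 13.3 in mTECs. The nidogens were low, Nid2 at 8.02 and 13.8 and Nid1 at 1.19 and 2.63.

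The stromal side was uneven, with some genes far above the fibrillar collagens they normally accompany. Dcn was the most abundant of all 64 genes in cTECs, at 259 ± 131, with 16.3% of their summed FPKM. Its level in mTECs was 103 ± 23.0. Col6a2 and Col6a1, which encode chains of the filament-forming type VI collagen, led in mTECs with 344 ± 83.7 and 321 ± 50, or 18% and 16.8% of the sum. Fn1 stood at 108 ± 32.6 in cTECs and 94.6 ± 45.5 in mTECs.

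The chains of type I collagen, the main fibre of connective tissue, were low beside these. Col1a1 had a mean of 1.25 ± 1.2 in cTECs and 7.06 ± 5.01 in mTECs, and Col1a2 of 2.23 ± 1.96 and 1.75 ± 2.14. Col3a1 was the highest fibrillar collagen in cTECs at 21.1 ± 19.3, and Col27a1 in mTECs at 25.4 ± 11.7. Lum, which is abundant in cornea and many fibroblasts, averaged 2 and 1.74. Col6a3, the usual partner of Col6a1 and Col6a2, had means of only 0.569 in cTECs and 1.33 in mTECs, whereas the related mouse chains Col6a4 and Col6a5 averaged 9.4 and 5.37 in mTECs and 0.692 and 0.656 in cTECs.

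The order of the levels was not sharp. In cTECs the libraries of Col4a1 ranged from 83.8 to 256, those of Lamb3 from 95.7 to 172, those of Col18a1 from 85 to 216 and those of Fn1 from 62.2 to 183, so these neighbours in the order overlapped widely. In mTECs the ranges of Col6a2 (202 to 588) and Col6a1 (238 to 464) overlapped, and so did those of Dcn (61 to 152), Fn1 (25.5 to 202) and Lamb3 (51.7 to 134).

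**Figure D1:**
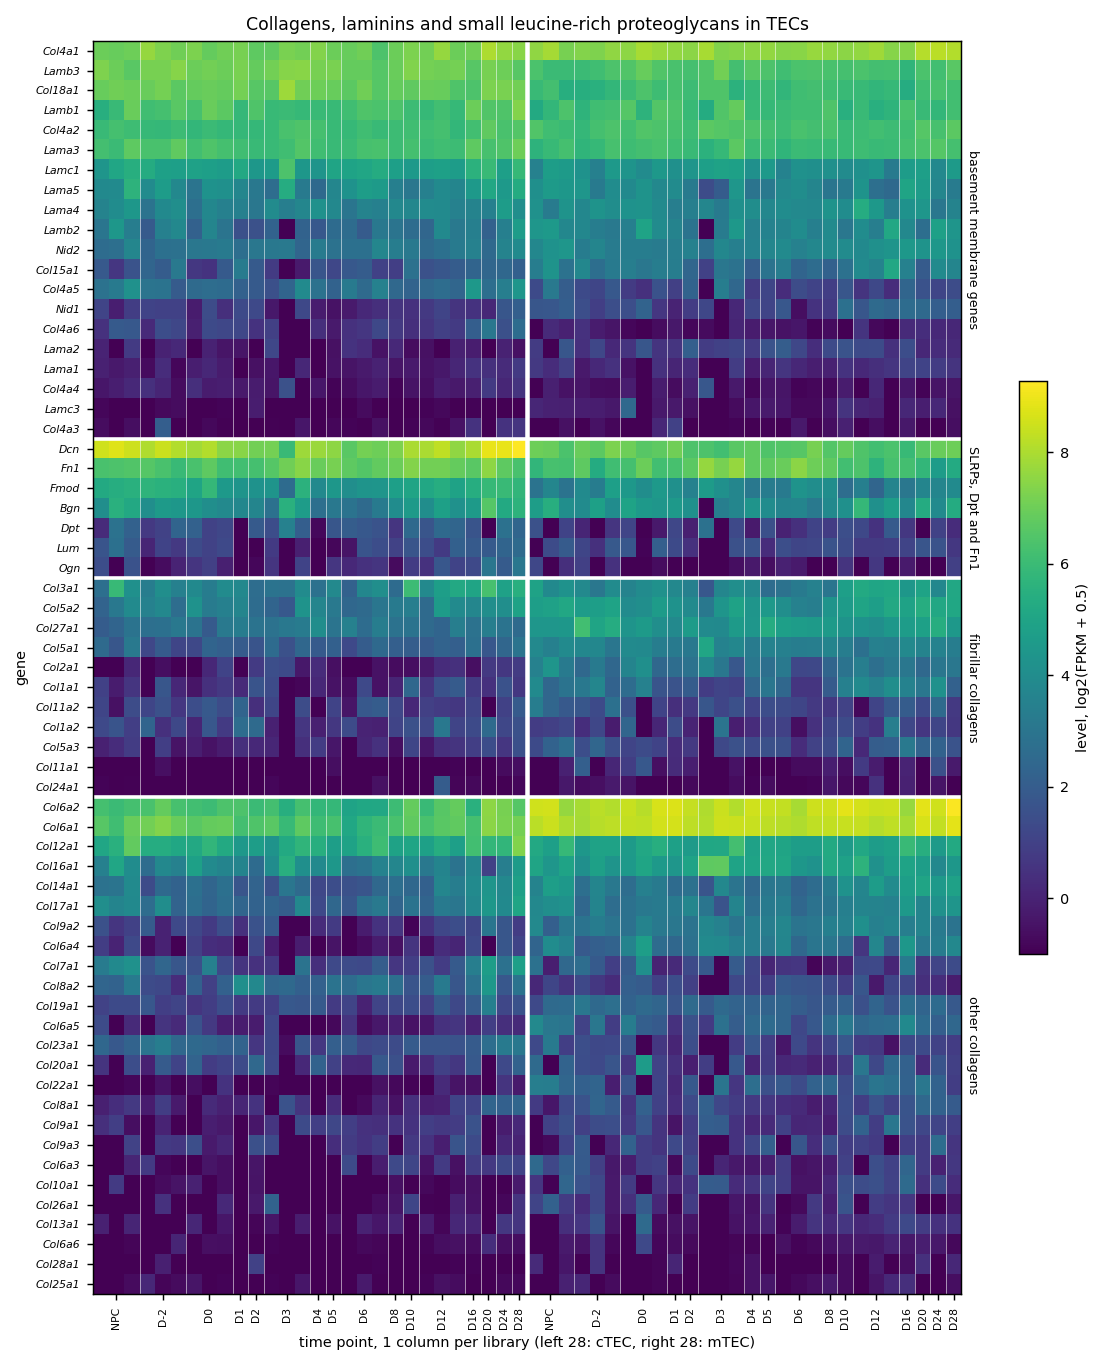
Level of 63 genes (rows, grouped by class) in each of the 56 libraries (columns, the 28 cTEC libraries on the left and the 28 mTEC libraries on the right, in time order), as the colour of log2(FPKM + 0.5). The more abundant laminin chains and Col4a1 form bands across both cell types, Col6a1 and Col6a2 are brighter in mTECs, and Dcn is brighter in cTECs.

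Summed by class, basement membrane genes outweighed fibrillar collagens in every library. The 21 basement membrane genes summed to 819 ± 135 FPKM in cTECs and 768 ± 90.4 in mTECs. The 11 fibrillar collagens summed to 50.5 ± 24.6 and 101 ± 25.6. The ratio of the fibrillar to the basement membrane sum was 0.023 to 0.118 in cTECs (median 0.0566) and 0.0837 to 0.245 in mTECs (median 0.13), and the ranges of the cell types overlapped. These sums describe the libraries and were not tested.

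cTECs and mTECs were then compared over all libraries with the time points as a term, in one limma-voom model of the 18394 genes that passed the filter in either cell type. A gene was called where it differed at least 2-fold and had a p of 0.01 or less after Benjamini-Hochberg adjustment, and all adjusted p-values here are from limma across all genes tested unless another tool is named. Of the 57 matrix genes tested, 29 were called, against 21.2% of all genes tested. 9 were higher in cTECs, where the background is 4.7%, and 20 were higher in mTECs, where it is 16.5%. Of the 57, 48 passed the filter in both cell types, and 22 of these were called. Another 7 (Col10a1, Col11a1, Col13a1, Col22a1, Col26a1, Lama1 and Lama2) passed only through mTECs and 2 (Col4a6 and Ogn) only through cTECs, so that some difference between the cell types is built into their being tested. The remaining 7 genes (Col24a1, Col25a1, Col28a1, Col4a3, Col4a4, Col6a6 and Lamc3) passed in neither.

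The classes went different ways. All 5 type VI collagens tested were called lower in cTECs, with a median log2 difference (cTECs minus mTECs) of -2.70. Of 10 fibrillar collagens 7 were called lower and none higher, with a median of -1.60. Differences were positive for 2 of the 10. Of the small leucine-rich proteoglycans, 3 of 5 were called higher in cTECs and none lower, with a median of 1.26. Of 18 basement membrane genes, 2 were called higher and 3 lower, with a median of -0.16, close to the -0.03 of all genes tested. Differences were positive for 8 of the 18 and negative for 10. The 3 called lower were Lama2, the laminin chain of muscle (-3.45), Col15a1 (-1.39) and Nid1 (-1.19). Lama2 and Col11a1 had been tested through mTECs alone and Col4a6 and Ogn through cTECs alone, and these genes are in the counts called. In bulk samples, fewer cells of a type and less RNA per cell cannot be told apart.

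The type VI collagen genes Col6a1 and Col6a2 separated the cell types completely. Col6a2 ran from 31.1 FPKM through a median of 74.6 to 184 in cTECs and from 202 through 352 to 588 in mTECs. Col6a1 ran from 34.8 through 99.5 to 179 in cTECs and from 238 through 315 to 464 in mTECs. No cTEC library reached the lowest mTEC library for either gene. How many of all genes separate the cell types in this way was not counted. On the log2 scale Col6a2 was lower in cTECs by a difference of -2.21 ± 0.09 (SE; adjusted p = 9.57e-25), and Col6a1 by -1.77 ± 0.08 (adjusted p = 5.32e-23).

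The rarer type VI chains moved the same way. Col6a4 had a median of 0.445 in cTECs (0 to 2.82) and of 8.21 in mTECs (1.01 to 27), and Col6a5 of 0.465 (0 to 2.5) and 5.12 (0.87 to 14.1). Their log2 differences were -4.83 ± 0.50 (adjusted p = 1.53e-11) and -3.81 ± 0.42 (adjusted p = 1.36e-10). The ranges of both overlapped only at their edges. Col6a3 differed by -2.70 ± 0.54 (adjusted p = 3.81e-05) at levels of at most 1.98 in cTECs and 5.14 in mTECs.

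Among the other collagens called lower in cTECs were Col22a1, Col2a1 and Col10a1, of which Col22a1 and Col10a1 had been tested through mTECs alone. As background, mTECs are known for transcribing many genes of other organs. Col22a1, a collagen of tissue junctions such as that of muscle and tendon, was at a median of 0 in cTECs (0 to 0.97) and 4.03 in mTECs (0 to 9.98), with a log2 difference of -5.82 ± 0.60 (adjusted p = 1.40e-11). Col2a1, the fibre of cartilage, was at 0.245 (0 to 2.28) and 7.74 (1.75 to 19.9), with a difference of -5.18 ± 0.44 (adjusted p = 3.11e-14). Col10a1 of hypertrophic cartilage was at 0 (0 to 1.19) and 1.14 (0 to 5.39), with a difference of -4.44 ± 0.59 (adjusted p = 1.23e-08). For these genes many cTEC libraries were at or near 0, so the size of the difference rests on few reads.

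Fibre-forming and fibre-coating collagens followed in the same direction. Col9a2, which decorates cartilage fibres, was at 1.23 (0 to 7.5) in cTECs and 9.7 (3.88 to 16.9) in mTECs, with a log2 difference of -3.47 ± 0.35 (adjusted p = 7.43e-12). Col5a1 and Col5a2, which start the assembly of fibres, had medians of 3.7 and 10.3 in cTECs and 11 and 24.8 in mTECs, and each differed by -1.49 (adjusted p = 2.14e-17 and 8.39e-16). Col1a1 was at 0.92 (0 to 4.95) in cTECs and 5.32 (0.99 to 17.8) in mTECs, with -2.38 ± 0.27 (adjusted p = 1.87e-10). Its partner Col1a2, which pairs with Col1a1 in the type I trimer, had a log2 difference of 0.75 ± 0.26 (adjusted p = 0.0156), and Col3a1 one of 0.06 ± 0.12 (adjusted p = 0.73). Col11a1, Col26a1, Col5a3, Col27a1 and Col16a1 were the other collagens called lower in cTECs, with -2.76, -2.52, -1.89, -1.71 and -1.34. Of these, Col11a1 and Col26a1 had been tested through mTECs alone. Fibroblast, mural cell and mesothelial markers were called higher in mTECs as well, as given above, and mural cell sums did not overlap between the cell types. Their part in these differences was not tested.

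On the cTEC side stood proteoglycans and the X-linked type IV chains. Dcn was at a median of 241 FPKM in cTECs (61.9 to 621) and 99.4 in mTECs (61 to 152), with a log2 difference of 1.26 ± 0.12 (adjusted p = 4.63e-13). Fmod, which like decorin binds collagen fibres, was at 33.2 (5.62 to 61.7) and 12.6 (4.63 to 27.4), with 1.52 ± 0.17 (adjusted p = 1.57e-10). For both genes the ranges overlapped, yet the mean of cTECs was above that of mTECs at 16 of 16 time points.

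Col4a5 and Col4a6, whose chains pair in the basement membranes of smooth muscle and of several epithelia, were both higher in cTECs. Col4a5 was at 5.81 (2.33 to 22) in cTECs and 1.9 (0 to 9.66) in mTECs, with a log2 difference of 2.02 ± 0.18 (adjusted p = 8.89e-14). Col4a6 was at 1.28 (0 to 8.04) and 0.25 (0 to 0.98), with 2.88 ± 0.46 (adjusted p = 6.77e-07). Col4a6 had been tested through cTECs alone, so some difference is built into its being tested. cTECs were above mTECs at 15 and 16 of 16 time points. The other head-to-head pair differed by less than 2-fold, Col4a1 by -0.58 ± 0.04 (adjusted p = 1.38e-15) and Col4a2 by -0.19 ± 0.04 (adjusted p = 0.000131), so that the pair on chromosome 8 was slightly higher in mTECs while the pair on the X chromosome was higher in cTECs.

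Ogn and Col8a2 completed the largest differences towards cTECs. Ogn was at a median of 1 FPKM in cTECs (0 to 7.96) and 0.065 in mTECs (0 to 1.8), with a log2 difference of 2.49 ± 0.65 (adjusted p = 0.00121). Like Col4a6, Ogn had been tested through cTECs alone. Col8a2, a short-chain collagen of Descemet's membrane in the cornea, was at 4.66 (0.72 to 21.6) and 1.54 (0 to 3.87), with 1.94 ± 0.26 (adjusted p = 1.74e-08). Col23a1, Col7a1 and Dpt were the other 3 called, with 1.64, 1.57 and 1.57. Lamb3 and Col18a1 were not called: Lamb3 differed by 0.74 ± 0.06 (adjusted p = 3.40e-15) and Col18a1 by 0.94 ± 0.06 (adjusted p = 1.59e-18), both under 2-fold.

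**Figure D2:**
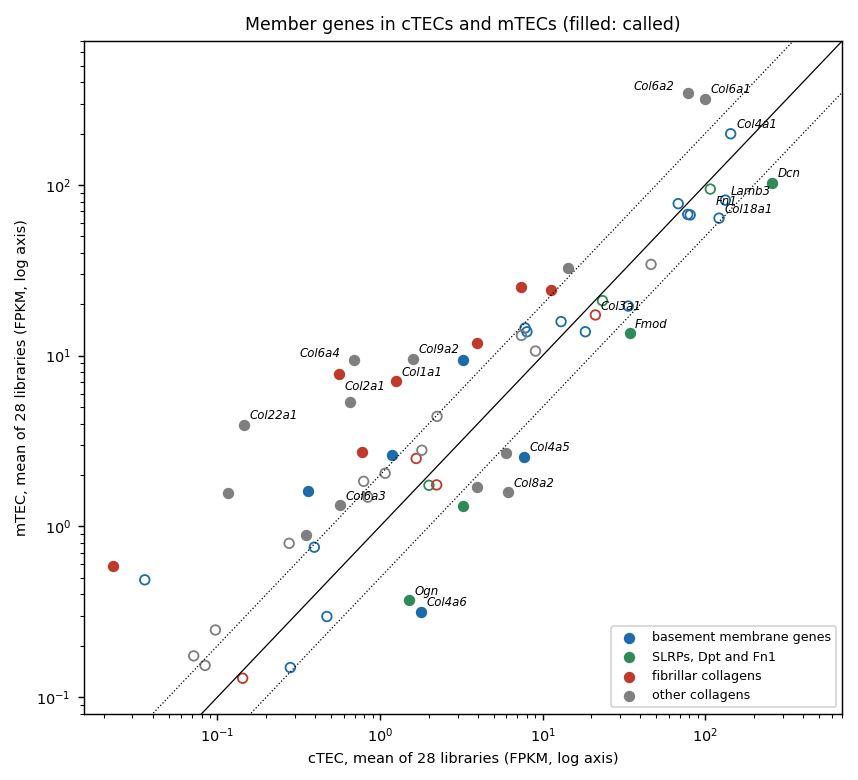
Mean FPKM of the 63 genes shown over 28 cTEC libraries (x axis) against 28 mTEC libraries (y axis), both on log scales, with filled points for the 29 genes called and dotted lines at 2-fold. The more abundant laminins and Col4a1 lie near the diagonal. Type VI and most fibrillar collagens lie above it, and Dcn, Fmod, Col4a5 and Col4a6 below it, as do the fibrillar Col3a1, Col1a2 and Col24a1 by a small distance.

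From the end of gestation to the start of regrowth, the comparison of D6 with D-2 asked which genes differ between the smallest thymus and its fastest growth. In cTECs, 5 of 50 matrix genes were called, against 1.34% of 15845 genes, and all 5 were lower at D6, a direction in which 0.669% of genes were called. They were proteoglycans, type VI collagens and a transmembrane collagen, and no basement membrane gene was among them. The log2 difference (D6 minus D-2) was negative for 36 of the 50, with a median of -0.45 against -0.03 over all genes.

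Of 5 small leucine-rich proteoglycans tested, Dcn and Fmod fell. Dcn stood at 266, 348 and 274 FPKM in the 3 libraries of D-2 and at 99.0, 138 and 128 in those of D6. Its log2 difference was -1.32 ± 0.18 (adjusted p = 0.00355). Fmod stood at 51.4, 46.2 and 44.8 at D-2 and at 16.2, 19.6 and 19.9 at D6, a difference of -1.40 ± 0.16 (adjusted p = 0.00158). In both genes every D6 library was well below every D-2 library. Bgn, which was not called, had a difference of -1.62 ± 0.30 (adjusted p = 0.0153), and Lum one of -0.10. Ogn had a positive difference, at 0, 0.14 and 0.51 at D-2 and 0.63, 0.90 and 1.02 at D6 (2.64, adjusted p = 0.25).

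Of 5 type VI collagens tested, Col6a1 and Col6a2 fell. Col6a1 stood at 137, 166 and 123 at D-2 and at 34.8, 52.9 and 64.4 at D6, a log2 difference of -1.56 ± 0.22 (adjusted p = 0.00443). Col6a2 stood at 79.7, 115.5 and 78.1 at D-2 and at 31.1, 34.0 and 35.1 at D6, a difference of -1.46 ± 0.18 (adjusted p = 0.00237). Neither gene overlapped between the days. The differences of Col6a3, Col6a4 and Col6a5 were -1.56, -0.72 and 0.57 (adjusted p = 0.729, 0.879 and 0.86). Col23a1, a transmembrane collagen, stood at 7.20, 9.79 and 5.11 at D-2 and at 3.42, 1.80 and 2.04 at D6, again without overlap, a difference of -2.36 ± 0.36 (adjusted p = 0.00705).

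Other transcripts moved between the same libraries: 7 of 8 cTEC markers were called higher at D6, all 8 mTEC markers had negative differences with 1 called (Cldn3, -2.05), 1 of 5 mural cell markers was called higher (Myh11, 1.71), and no fibroblast marker of 6 tested was called. All 10 thymocyte markers had positive differences and 0 were called. Their sums stood at 20.4, 18.3 and 20.6 FPKM at D-2 and at 88.5, 82.8 and 64.2 at D6. The part of these transcripts in the matrix changes was not tested. The count of called matrix genes was 0 without D-2 replicate 1 or without D-2 replicate 2, 2 without D6 replicate 2 or replicate 3 and 3 without D6 replicate 1 or D-2 replicate 3, and 6 by edgeR and 7 by DESeq2.

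mTECs did not show this fall in the same test. None of 55 matrix genes was called in mTECs between D-2 and D6 with limma, against 0.299% of 17743 genes, and 15 had an unadjusted p under 0.05, as did 3596 of the 17743. edgeR called 0 and DESeq2 called 3, and 2 passed in limma at an adjusted p of 0.05, where 1.45% of all genes did. Fn1 had a log2 difference of 1.25 (adjusted p = 0.0349) and Col8a1 one of -2.31 (adjusted p = 0.0426). Whether D6 and D-2 differ more in cTECs than in mTECs was not tested.

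Late gestation itself was compared with non-pregnant controls. None of 50 matrix genes in cTECs and none of 55 in mTECs was called with limma, where the background was 0% of all genes in each cell type. Unadjusted p-values under 0.05 were reached by 7 and 11 matrix genes, and by 1564 of 15845 and 2267 of 17743 of all genes. edgeR called 0 in both, and DESeq2 called 0 in cTECs and 1 in mTECs. That gene was Col27a1, a fibrillar collagen, with libraries of 71.1, 31.6 and 40.3 at D-2 and 20.7, 20.9 and 21.5 in NPC, a log2 difference of 1.57 and an adjusted p of 0.0651 with limma. Dcn in cTECs was 388 ± 42.0 in NPC and 296 ± 45.2 at D-2 (SD, n = 3), the highest and next highest of the replicated time points.

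Variation over the 6 replicated time points was tested with a single F test per gene. In cTECs 3 of 50 matrix genes passed an adjusted p of 0.01, against 1.16% of all genes, and they were Bgn (0.00228), Dcn (0.00774) and Col6a2 (0.0099). Dcn in cTECs fell from the NPC mean through 226 ± 46.8 at D0 and 138 ± 76.8 at D3 to 122 ± 20.3 at D6 and stood at 254 ± 61.6 at D12. Bgn had its lowest mean at D6 too, with libraries of 6.98, 5.36 and 8.80 against 15.9, 28.6 and 17.8 at D12. Col6a2 stood at 62.8, 98.3 and 115 at D12, all above its D6 libraries. At an adjusted p of 0.05, 5 genes passed, against 2.59% of all genes. The D3 libraries were wide apart, with Dcn at 138, 61.9 and 215, the lowest of them being the library least like the other cTEC libraries. Without that library 5 genes passed, and without D6 replicate 1 or D6 replicate 2 none did.

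In mTECs 2 of 55 passed, against 0.783% of all genes. Fn1, whose product carries the RGD sequence that integrins bind, stood at 201, 144 and 202 FPKM at D3, at 123, 178 and 128 at D6 and at 105, 40.1 and 68.9 at D-2 (adjusted p = 0.00145). All D3 libraries were above all D-2, NPC, D0 and D12 libraries, whose highest value was 125. Fn1 in cTECs at D3 stood at 95.2, 133 and 175. Col27a1 was the other gene (adjusted p = 0.0061), highest at D-2 as given above. At 0.05, 6 genes passed, against 5.1% of all genes. Fn1 passed in 25 of the 26 alternatives tried and Col27a1 in 15. The same test at the looser limit of 0.05, which cannot lose a call, is among these.

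**Figure D3:**
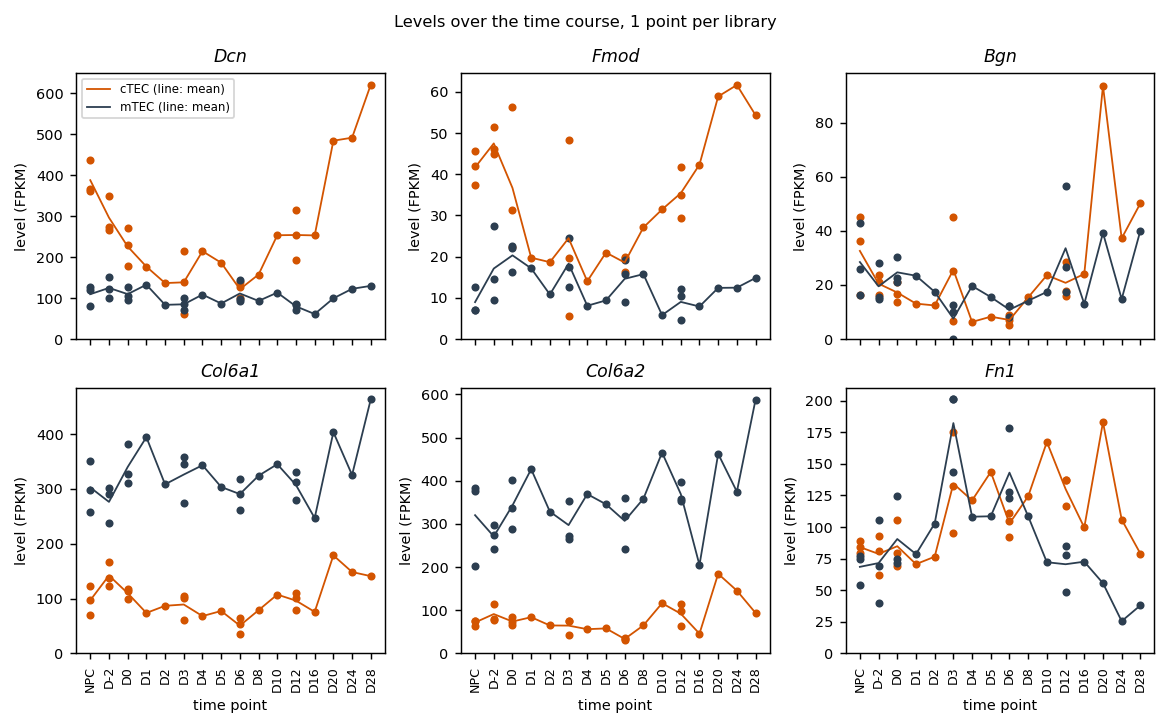
FPKM of Dcn, Fmod, Bgn, Col6a1, Col6a2 and Fn1 in each library (points) by time point for cTECs and mTECs, on linear axes from 0. In cTECs Dcn has its lowest replicated mean at D6 and stands at 621 at D28, and in mTECs Fn1 peaks at D3.

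The late phase differed from the early phase in cTECs, and only upwards for these genes. Of 50 matrix genes, 12 were called, against 1.41% of all genes, and all 12 were higher late, a direction in which 1.14% of all genes were called. Log2 differences (late minus early) were positive for 43 of 50, with a median of 0.93 against -0.04 over all genes. They were 3 of 5 small leucine-rich proteoglycans, all 3 anchoring and transmembrane collagens tested, 2 of 16 basement membrane genes, 1 of 9 fibrillar collagens and 3 others. With an adjusted p of 0.05 as the limit, 21 were called, against 4.08% of all genes.

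Collagens of the epithelial anchoring complex were higher late than early. Col7a1, the anchoring fibril under stratified epithelia, stood at 9.90, 26.3, 6.70 and 27.1 FPKM on D16, D20, D24 and D28, against 0 to 10.6 (median 1.9) in the 18 early libraries, a log2 difference of 2.98 ± 0.42 (adjusted p = 0.000153). Col17a1, the hemidesmosome collagen, stood at 13, 21, 14.2 and 32.1 on those days, against 1.9 to 13.2 (median 4.73) early, a difference of 1.96 ± 0.23 (adjusted p = 2.99e-05). D16 lay within the early range in both genes, as did D24 for Col7a1, and the other late libraries lay above it. Col23a1 stood at 3.42, 6.14, 8.79 and 8.12 against 0.11 to 5.23, with 1.59 ± 0.28 (adjusted p = 0.00138). In NPC cTECs, Col7a1 stood at 9.29, 14.3 and 17.8, Col17a1 at 16.4, 12.1 and 14.3 and Col23a1 at 4.93, 3.03 and 4.30. The anchoring and transmembrane collagens summed to 32.5 ± 4.03 in NPC, 11.3 ± 5.06 early and 44.9 ± 19.6 late, so the early level was below that of NPC. Late against NPC was not tested.

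The 3 proteoglycans called were Bgn, Dcn and Ogn. Bgn stood at 24.1, 93.5, 37.2 and 50.1 on D16, D20, D24 and D28, against 5.36 to 44.9 (median 14.5) early, a log2 difference of 1.73 ± 0.24 (adjusted p = 0.000153). Dcn stood at 253, 484, 492 and 621 against 61.9 to 316 (median 182), a difference of 1.27 ± 0.28 (adjusted p = 0.00597). For Dcn D16 lay within the early range and the 3 later days above it. Dcn kept its call in 5 of 14 alternatives, among them the looser limit of 0.05, which cannot lose a call. The call was lost without the D20, D24 or D28 library and with edgeR, and the difference was 0.64 (adjusted p = 0.0569) with sample quality weights. Ogn stood at 1.93, 7.70, 3.42 and 7.96 against 0 to 2.96 (median 0.95), with 3.93 ± 0.72 (adjusted p = 0.00179). Lum and Fmod were not called, with 3.26 (adjusted p = 0.0175) and 1.11 (adjusted p = 0.0135).

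Col14a1, which coats fibres at tissue interfaces, was among the clearest differences between late and early cTECs. It stood at 14.6, 20.3, 13.4 and 27.9 in late cTECs, above all 18 early libraries (1.75 to 12.7, median 4.71), a log2 difference of 2.18 ± 0.25 (adjusted p = 2.28e-05). Col8a1 stood at 1.59, 4.47, 3.99 and 4.74 against 0 to 2.52 (median 0.5), a difference of 4.01 ± 0.64 (adjusted p = 0.000585), with early libraries near 0. The related collagen Col12a1 stood at 71.1, 56, 53.7 and 160 against 19.1 to 66.9, with 1.15 ± 0.22 (adjusted p = 0.00238), its D28 library lying far above the other 3.

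Among the 4 type IV chains tested, Col4a5 and Col4a6 were called, and Col4a1 and Col4a2 had log2 differences of 0.33 and 0.29 (adjusted p = 0.112 and 0.0704). Col4a6 stood at 3.66, 8.04, 2.36 and 5.75 in late cTECs, above all early libraries (0 to 1.95, median 1.03), a log2 difference of 2.20 ± 0.50 (adjusted p = 0.00786). It kept its call in 5 of 14 alternatives, again with the looser limit of 0.05 among them, and lost it without the D16, D20 or D28 library. Col4a5 stood at 22, 6.03, 10 and 20.6, against 2.33 to 14.7 early, with 1.22 ± 0.22 (adjusted p = 0.00155), and overlapped. Of the fibrillar collagens only Col5a2 was called, at 12.6, 16.3, 16.5 and 29.5 against 3.03 to 24.8, with 1.31 ± 0.24 (adjusted p = 0.0016). Col3a1 had a difference of 1.33 (adjusted p = 0.0312), and Lamb3 was slightly negative at -0.30.

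**Figure D4:**
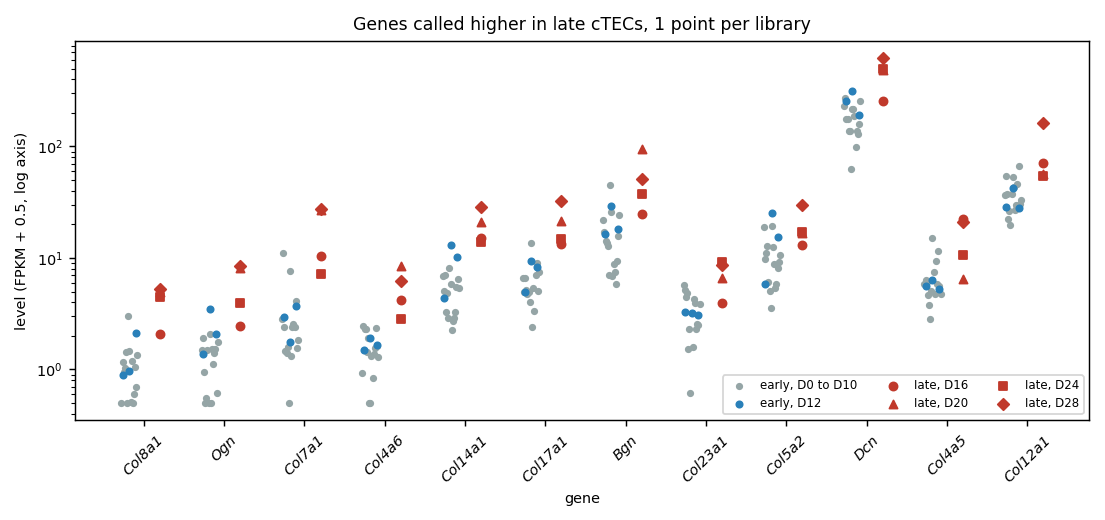
FPKM + 0.5 on a log axis for the 12 genes called between late and early cTECs, with early libraries in grey, D12 in blue and the 4 late libraries in red, marked by day. Late points of Col14a1 and Col4a6 lie above all early points, and for the other 10 genes the lowest late point lies among the early ones.

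Both class sums had higher means late than early, with overlapping ranges in both cell types, and were not tested. Basement membrane genes summed to 760 ± 78.6 FPKM in early and 1047 ± 171 in late cTECs and to 753 ± 57.5 and 916 ± 88.0 in mTECs. Fibrillar collagens summed to 44.5 ± 19.7 and 85.4 ± 25.4 in cTECs and to 88.9 ± 22 and 129 ± 9.97 in mTECs. In NPC and at D-2, basement membrane genes summed to 805 ± 93.5 and 882 ± 26.5 in cTECs and to 754 ± 47.9 and 683 ± 106 in mTECs. Fibrillar collagens there summed to 53.1 ± 27.6 and 37.6 ± 9.02 in cTECs and to 119 ± 10.3 and 122 ± 20.6 in mTECs. The ratio of fibrillar to basement membrane sums had a median of 0.0513 in early cTECs and ran from 0.0673 to 0.0934 in late ones, within the early range of 0.023 to 0.118, and of 0.11 and 0.125 to 0.158 in mTECs. The shift in balance was smaller than the spread of the early libraries. The 5 small leucine-rich proteoglycans summed to 468 ± 54.8 in NPC, 366 ± 47.3 at D-2, 231 ± 77.8 early and 577 ± 178 late in cTECs.

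**Figure D5:**
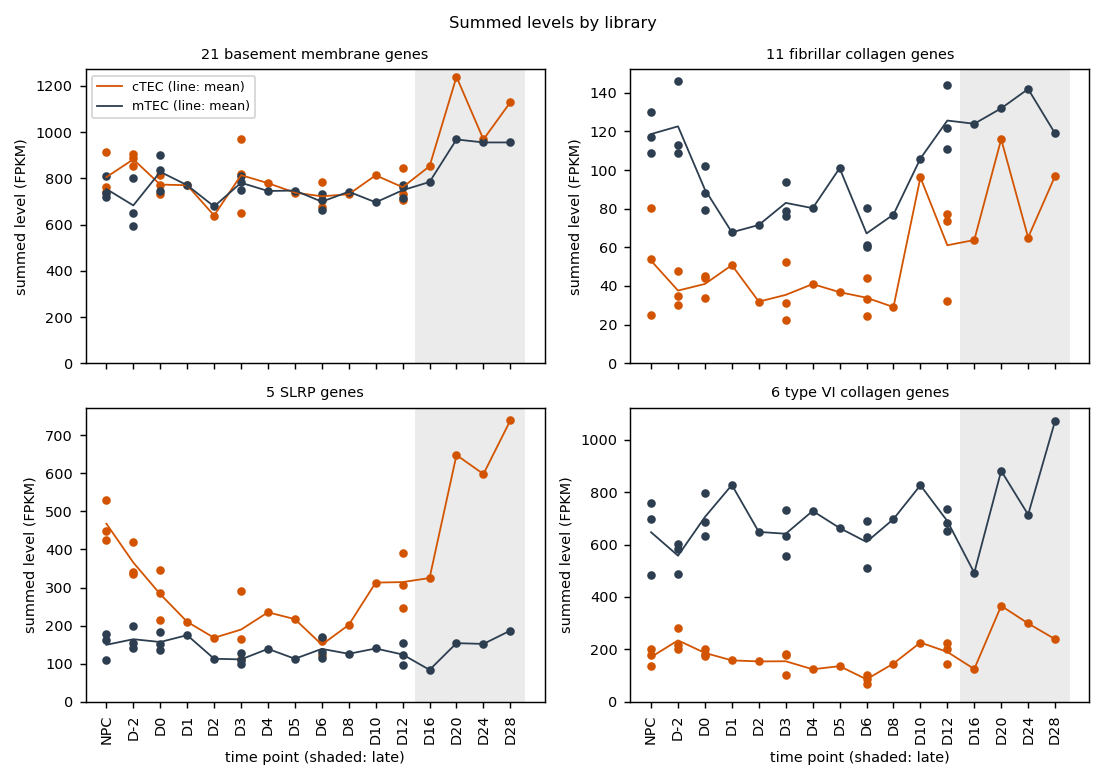
Summed FPKM of the 21 basement membrane genes, 11 fibrillar collagens, 5 small leucine-rich proteoglycans and 6 type VI collagens by time point, with each library as a point and the late days shaded, for cTECs and mTECs. The proteoglycan sum of cTECs dips in the early days and is highest late, and the type VI sum of mTECs lies above that of cTECs throughout.

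Other measures differed between late and early cTECs. Long genes stood higher relative to short ones in the late libraries. For this length trend, each gene's log2 level was first set against its median over the 28 cTEC libraries. The median deviation of genes of 5000 bases or more, minus that of genes under 1500 bases, was then taken per library. It was 0.067 to 0.52 (median 0.22) late and -0.239 to 0.256 (median -0.0765) early. The matrix genes are long, with a median of 4340 bases against 1972 for all genes tested. With this length trend as a term, 4 of the 12 remained called, namely Bgn, Col14a1, Col17a1 and Col7a1, with log2 differences of 1.79, 1.93, 1.74 and 2.27. The other 8 had 1.48 for Dcn, 3.68 for Ogn, 3.92 for Col8a1, 1.51 for Col23a1, 1.49 for Col4a6, 0.96 for Col5a2, 0.74 for Col4a5 and 0.62 for Col12a1, with adjusted p-values from 0.0132 to 0.156. The fibroblast marker sum was 19.6 to 33 late and 8.44 to 20 early, with 0 of its 6 tested markers called. Of 5 mural cell markers 1 was called higher (Rgs5, 2.82-fold), and the mesothelial marker sum was 46.6 ± 15.6 late and 20.3 ± 16.3 early. Of 5 epithelial markers tested, 2 had positive differences and 1 was called, which was lower late. Foxn1, in this list, had a difference of -1.28. Of 8 mTEC markers 6 had positive differences, Aire (2.07) and Cd80 (3.08) among them, and 2 were called. The summed mTEC markers stood at 2085 ± 394 FPKM early and 2073 ± 794 late. Of 8 cTEC markers 1 had a positive difference and 0 were called. The part of these in the matrix result was not tested. The count was 5 without the D28 library and 10 to 14 without any 1 of the other 3, 6 with edgeR and 8 with DESeq2, and 0 when D12 was counted as late, where no gene of any kind was called.

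In mTECs none of 55 matrix genes was called between late and early libraries with limma, against 0.062% of all genes. An unadjusted p under 0.05 was reached by 21, and by 3541 of all 17743 genes. edgeR called 0 and DESeq2 called 1, and at an adjusted p of 0.05 limma called 4, against 1.04% of all genes. Signs were mostly positive here too, for 43 of 55, with a median log2 difference of 0.53 against -0.01. Col14a1 came closest, at 26.6, 31.4, 22.5 and 29.1 late against 2.73 to 25.1 early (1.40, adjusted p = 0.0102). Fn1 went the other way, at 72.6, 55.6, 25.5 and 38.0 against 48.9 to 202, with -1.23 (adjusted p = 0.0237).

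The difference between cell types in the late change was tested as an interaction. None of 57 matrix genes was called with limma, against 0.00544% of all genes, with 15 at an unadjusted p under 0.05, as were 1867 of all 18394 genes, and edgeR and DESeq2 called 0 each. Dcn had an interaction of 1.31 (adjusted p = 0.117), Col17a1 of 1.21 (adjusted p = 0.114) and Col8a1 of 2.90 (adjusted p = 0.113), each in the direction of a larger rise in cTECs. A difference between the cell types in the late change was not detected by this test with 4 late libraries of each, treated as separate mice.

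Genes that process, cut or bind the matrix were read alongside, from 4 separate lists. Between cell types 7 of 25 collagen processing enzymes were called (28%, against 21.2% of all genes), 3 of them higher in cTECs and 4 lower, where 4.7% and 16.5% of all genes were called. P4ha3, a subunit of the prolyl hydroxylase that stabilises the collagen helix, had means of 63.9 FPKM in cTECs and 13.3 in mTECs (log2 difference 2.49, adjusted p = 4.65e-25). Of the enzymes highest in level, the isomerase Ppib stood at 160 and 216 and the collagen chaperone Serpinh1 at 93.2 and 89, neither called.

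Of 10 matrix proteases and inhibitors, 6 were called between cell types (60%, against 21.2%), 1 higher in cTECs and 5 lower. Mmp14, a membrane-bound collagenase, stood at 269 and 337 and was not called. Mmp2, a gelatinase that Mmp14 activates, stood at 121 in cTECs and 50 in mTECs (1.07, adjusted p = 3.58e-11), and the inhibitor Timp2 at 70 and 48.3 without a call. Of 10 other basement membrane components, 3 were called higher and 1 lower in cTECs (40%, against 21.2%). The most abundant of them were Sparc at 219 and 139, Agrn at 81.3 and 42 and Npnt, an integrin ligand, at 41.1 and 13.6, of which Npnt was called (1.69, adjusted p = 3.32e-18).

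Of 12 receptors for laminin and collagen, 2 were called higher and 2 lower in cTECs (33.3%, against 21.2%). Bcam, which binds laminin alpha-5, stood at 197 in cTECs and 94.9 in mTECs (1.06, adjusted p = 2.03e-16). The integrin subunit Itgb4 and the collagen receptor Ddr1 were at 160 and 140 in cTECs and 140 and 91.3 in mTECs, neither called. Late against early in cTECs, 24, 9, 10 and 9 genes of the 4 lists were tested, and 1.41% of all genes were called. Only Fras1, a cell surface protein that holds epithelium to mesenchyme, was called among the lists (1.44, adjusted p = 0.000477). None was called in mTECs, against 0.062% of all genes. Between D-2 and D6 in cTECs, 1 of 24 collagen processing enzymes and 1 of 9 matrix proteases and inhibitors were called, against 1.34% of all genes. The procollagen protease Adamts2 was higher at D6 (2.37, adjusted p = 0.00164) and Mmp15 lower (-1.41, adjusted p = 0.00408). In mTECs 1 of 10 matrix proteases and inhibitors was called, Mmp9, higher at D6 (1.34, adjusted p = 0.00945), against 0.299% of all genes.

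Finally, 6 genes were set against the summed fibroblast markers across the 28 libraries of each cell type, 12 correlations in all on the scale of log2(FPKM + 0.5) with two-sided permutation tests of 100000 resamples. Dcn in cTECs had Pearson's r = 0.54 (permutation p = 0.00294, adjusted 0.0353) and Spearman's rho = 0.51 (permutation p = 0.00585, adjusted 0.0386). Without the 2 libraries farthest from the median marker sum, r was 0.46 (permutation, adjusted p = 0.0818), so the relation rests in part on those libraries. In mTECs Dcn had r = -0.36 (permutation p = 0.0591, adjusted 0.124) and rho = -0.35 (permutation p = 0.0691, adjusted 0.138).

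Col3a1 had r = 0.43 (adjusted permutation p = 0.107) and rho = 0.51 (adjusted permutation p = 0.0386) in cTECs and 0.36 (0.124) and 0.40 (0.0897) in mTECs. Col1a1 in cTECs had r = 0.32 (adjusted permutation p = 0.174) and rho = 0.27 (0.27). In mTECs it had r = 0.40 (adjusted permutation p = 0.107) and rho = 0.44 (0.0672), and r = 0.58 (adjusted permutation p = 0.0236) without the 2 farthest libraries. Of the basement membrane genes, Col4a1 had r = 0.40 (adjusted permutation p = 0.107) in cTECs and 0.21 (0.376) in mTECs, Lama5 0.26 (0.287) and 0.06 (0.766), and Lamb3 -0.20 (0.376) and -0.07 (0.766). In cTECs most late libraries lay above the early ones in Dcn and in the fibroblast marker sum. D16 lay within the early range for Dcn, and D20 (19.56 FPKM) within the early range of the marker sum (8.44 to 20). The correlation of Dcn in cTECs and the late comparison therefore share libraries.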

How the data were processed

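RNA of sorted cTECs and mTECs (56 libraries, 28 of each) was sequenced by the authors from stranded polyA libraries. Per the labels, reads were demultiplexed with bcl2fastq 2.20, trimmed with Trimmomatic 0.35, aligned to GRCm38 with STAR 2.5.1b and quantified per gene with RSEM 1.2.28; the annotation release is not given in the sources used here. The deposited files hold, for each gene, an expected count (RSEM's estimate, 91.44% to 97.96% of them whole numbers), a TPM value and an FPKM value. The authors' TPM and FPKM are normalized for length and depth and were used as deposited, FPKM for levels and TPM for an alternative of the correlations. Symbols came from GENCODE M21, which matched 50376 of 50600 gene identifiers.

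Expected counts were rounded to whole numbers, scaled by TMM and tested with limma-voom (limma 3.58.1, edgeR 4.0.16, R 4.3.3). Genes with a mean of at least 0.5 FPKM over the 28 libraries of a cell type were kept, as the study's methods do (15845 in cTECs, 17743 in mTECs). A gene was called at a fold of 2 or more with a p, adjusted by Benjamini-Hochberg over all genes tested, of 0.01 or less; the test over 6 time points was an F test at an adjusted p of 0.01. Samples were grouped by cell type and time point from the labels. Comparisons within a cell type with 3 against 3 libraries, or 18 against 4, used those libraries only. Precision is limited by the number of mice and by total counts of 4561208 to 108547384, and low FPKM rest on few reads. The programs were tested on simulated data.

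Alternatives were edgeR's quasi-likelihood test, DESeq2 1.42.0, voom with sample weights, RLE size factors, no filter, an adjusted p of 0.05, D12 counted as late, leaving out each library, a replicate block and, for correlations, a pseudocount of 0.1, TPM and leaving out 2 libraries. A length-trend term and leaving out selected libraries were added after the data had been seen. The 64 genes and the lists beside them were chosen with earlier results of these data known. Genes named with full values were those called in a comparison (the 6 largest changes in each direction where more), the 3 with the highest mean FPKM in either cell type among basement membrane genes and among fibrillar and interstitial genes, and the 6 genes of the correlations; other genes are given briefly, and up to 3 examples of each pathway list were those highest in level, with others named because they were called. Promoter sequences are from RefSeq; 19 of the 64 genes had no entry. A single gene is not reported here by name; it is part of the sums and counts.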

Additional observations from a re-analysis of the deposited data

Results flagged for a closer look

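Single late libraries stood apart from the other 3 of their group by Dixon's gap test in 7 of 82 groups of 4 examined; chance alone marks about 1 in 20 groups. In late cTECs, Col12a1 was highest at D28, at 160 FPKM, Col1a1 was highest at D24, at 2.48, and Col2a1 was lowest at D16, at 0.17. In late mTECs, Col2a1 was lowest at D20, at 5.11. The mTEC library of D16 was the highest of its group for Col6a5 at 14.1, for Col7a1 at 8.95 and for Lama2 at 2.19.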

How the results depend on the processing

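Between cTECs and mTECs, where 29 matrix genes were called, the alternatives run called 27 to 33. Late against early, 12 matrix genes were called in cTECs; 21 were called at an adjusted p of 0.05, 6 with edgeR, 4 with the length trend as a term, 7 without the D16 and D28 libraries, 0 with D12 counted as late, and 5 to 14 when each late library was left out. In mTECs, where 0 were called, 4 were called at 0.05, 1 with DESeq2, 2 with sample weights, 1 with RLE size factors, 1 with no filter, 3 with D12 counted as late, 3 with the length trend and 1 without the 4 libraries least like the others; leaving out each late library gave 0 to 0. For D6 against D-2, 5 were called in cTECs and 0 to 3 when each library was left out; in mTECs 0 were called, and 2 at 0.05, 3 with DESeq2 and 2 with sample weights. For D-2 against NPC in mTECs DESeq2 called 1. Over the 6 time points, 3 passed in cTECs, 5 at 0.05, 1 with edgeR, 5 with DESeq2, 5 without the 4 libraries least like the others and 0 to 5 when each library was left out; 2 passed in mTECs, 6 at 0.05, 1 with edgeR, 4 with DESeq2, 0 with sample weights, 1 without those 4 libraries and 1 to 3 when each library was left out. The correlation of Dcn with the fibroblast markers in cTECs was 0.46 without the 2 farthest libraries, no longer past the threshold, and that of Col1a1 in mTECs was 0.58, now past it. The cause of these differences was not tested. The length-trend and left-out-library alternatives were chosen after seeing the data. No result changed direction. Taken gene by gene, the called genes kept their call in 281 of 290 alternatives between cell types, and in late cTECs they kept it in 119 and lost it in 47. The limit of 0.05 is among these alternatives. It is the same fit at a looser limit and cannot lose a call, so its share of the kept calls was fixed in advance.

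Libraries of the groups share replicate numbers, but nothing in the labels says that a number marks a litter or a day, and libraries with the same number did not deviate together (-0.10 to 0.06 for replicate pairs, and -0.14 to 0.126 for the 16 pairs of cTEC and mTEC libraries with the same number in their titles), so the number was not used as a pairing. Whether a title number marks the same mouse in both cell types is not given in the sources used here. With time point and title number as a block, 28 genes were called between cell types and 1 (Col17a1) in the interaction. Only libraries with a partner of the same number entered these fits, 26 pairs between cell types. Within a cell type the block was the replicate number, which differs from the title number in several groups. It gave 5 in cTECs and 0 in mTECs for D6 against D-2, 0 in both for D-2 against NPC, and 2 in cTECs and 3 in mTECs over the time points.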
